A study of Mus musculus with 19 samples.

Results

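Proteoglycan 4 (Prg4) and 9 further genes of the vessel wall's proteoglycan matrix were followed through all 4 groups of the experiment. The members were the rows of the deposited expression matrix that carry the symbols Prg4, Acan, Vcan, Bgn, Dcn, Lum, Fmod, Ogn, Aspn and Has2, 10 of its 20408 genes, and all 10 passed the filter on low values that kept 14845 genes for testing. The set was chosen with values of these same mice known, in that Prg4 was selected on its rise with angiotensin II (Ang II) in IKKβ+/+ aorta. Values of that comparison are therefore given as a description for every member, with no p-value and nothing read from the threshold. Prg4 was tested only within IKKβ-/- mice, which took no part in that choice, and its values between genotypes are a description too.

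Proteoglycans are core proteins that carry long sulfated sugar chains, and they fill the space between the collagen and elastic fibres of the aortic wall. The large aggregating members (aggrecan and versican) bind hyaluronan, a sugar polymer made at the cell membrane by hyaluronan synthases, and form swollen, compressible gels. The small leucine-rich proteoglycans (biglycan, decorin, lumican, fibromodulin, osteoglycin and asporin) lie on collagen fibrils and limit their width and spacing, and several of them bind TGF-β. Prg4, also called lubricin, is a mucin-like glycoprotein known for coating and lubricating joint surfaces.

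Bulk RNA sequencing was performed on the suprarenal aorta of 19 male mice on a C57BL6 background, 24 h after the start of a subcutaneous infusion from an osmotic pump. There were 5 saline-infused and 5 Ang II-infused IKKβ+/+ mice (SMA-CreERT2 IKKβWT/WT ApoE-/-) and 4 saline-infused and 5 Ang II-infused IKKβ-/- mice (SMA-CreERT2 IKKβFlox/Flox ApoE-/-). All mice lacked ApoE, carried the tamoxifen-inducible Cre under the smooth muscle actin promoter, received tamoxifen and ate regular chow, and their age was 8 weeks in the labels. In the paper, 8 weeks is the age at the start of the tamoxifen injections, which a rest period separated from the infusion. The labels give the dose of Ang II as 500 to 1000 ng/min/kg, and the methods give 1000 ng/min/kg for the sequenced mice. Cre under this promoter is meant to delete the kinase IKKβ in smooth muscle and to leave it in the fibroblasts, endothelium and leukocytes of the wall, and each library came from 1 mouse.

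Library depth ranged from 11382573 to 19906694 reads assigned to genes. The mean of Ikbkb, the targeted gene, was 673 ± 78.6 (SD, n = 5) and 726 ± 46.3 (n = 5) normalized reads in IKKβ+/+ mice with saline and Ang II, and 515 ± 74.3 (n = 4) and 548 ± 87.9 (n = 5) in IKKβ-/- mice, and with saline the genotypes did not overlap. The summed counts of 8 smooth muscle markers lay between 309864 and 647800 in every mouse, against 15684 to 47973 for 8 adventitial fibroblast markers, so the labelled tissue carried its defining markers. Mitochondrial transcripts took 5.99% to 9.07% of the reads with saline and 10.1% to 14.1% with Ang II in IKKβ+/+ mice, without overlap. In IKKβ-/- mice the shares were 8.89% to 38.7% with saline and 7.88% to 37.2% with Ang II. The part of this spread in the treatment and genotype comparisons was not tested. The sum of 8 adipocyte markers was 2880.4 to 18561 with saline and 4000 to 11204 with Ang II in IKKβ+/+ mice. In IKKβ-/- mice it was 2260.5 to 6764 and 4238 to 49812, and its part in the comparisons was not tested. In bulk tissue, fewer cells of a type and less RNA per cell cannot be told apart.

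The promoters of 3 small leucine-rich proteoglycans that were lower with Ang II in IKKβ+/+ aorta (Ogn, Aspn and Fmod) are shown so that the letters can be set beside the values. Lum was lower there too, and its promoter is not among those shown. The table of RefSeq promoters used here (GRCm38.p6) held 6 of the 10 members (Fmod, Acan, Aspn, Ogn, Vcan and Bgn), and the promoters of Prg4, Dcn, Lum and Has2 were not analysed here. The 250 bases before the start are given 5′ to 3′ on the gene's strand, which is the + strand for all 3, for Ogn at chr13:49607765-49608014, for Aspn at chr13:49544193-49544442 and for Fmod at chr1:134037004-134037253. Capitals mark TATAAA and GGAATG (the core letters bound by TEAD factors), read on both strands.
Ogn promoter: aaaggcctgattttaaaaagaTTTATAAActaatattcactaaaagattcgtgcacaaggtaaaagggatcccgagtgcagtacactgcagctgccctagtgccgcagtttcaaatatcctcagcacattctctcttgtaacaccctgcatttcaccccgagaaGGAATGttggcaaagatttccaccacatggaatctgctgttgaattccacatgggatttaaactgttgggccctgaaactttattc
Aspn promoter: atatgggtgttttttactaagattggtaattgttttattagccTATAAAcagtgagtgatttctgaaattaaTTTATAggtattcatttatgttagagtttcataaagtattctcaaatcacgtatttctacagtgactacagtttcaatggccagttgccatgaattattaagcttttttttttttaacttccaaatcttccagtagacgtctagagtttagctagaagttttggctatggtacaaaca
Fmod promoter: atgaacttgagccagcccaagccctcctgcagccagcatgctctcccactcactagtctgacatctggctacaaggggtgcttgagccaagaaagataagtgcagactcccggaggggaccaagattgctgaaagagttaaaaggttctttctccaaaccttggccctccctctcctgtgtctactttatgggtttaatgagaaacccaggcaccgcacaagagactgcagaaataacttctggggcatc

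TATAAA was found in the Ogn and Aspn promoters, as 2 overlapping matches in Ogn and 2 separate ones in Aspn, and in 12.4% of all 32851 RefSeq promoters of the same length. GGAATG was found once each in the Ogn and Acan promoters and in 12.6% of all promoters. TGANTCA, the AP-1 letters, and the CArG box of serum response factor were in none of the 6 promoters, against 6.75% and 1.47% of all. A κB motif (NF-kB) was found in the Acan promoter alone of the 6, and in 7.25% of all promoters. The motifs were picked after values and sequences had been seen, and a match describes letters, not a bound site. GC content ran from 30.0% in the Aspn promoter to 74.4% in that of Acan.

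The 10 genes spanned more than 3 orders of magnitude of level. On a scale of normalized reads per kb of exon (exon lengths from Gencode), mean levels over the 19 mice were highest for Bgn (10874), Ogn (7649) and Dcn (6280), the collagen-binding proteoglycans of the wall. Lum followed at 2034, Fmod at 739 and Aspn at 698, and then Vcan at 146, Prg4 at 110.1, Acan at 29.1 and Has2 at 9.09. Neighbours in this order overlapped in their ranges over mice, except Aspn (253 to 1237) over Vcan (75.3 to 230.1). Prg4 and Acan changed places with treatment: the mean per kb of Prg4 was 17.9 and 8.73 in the saline groups of IKKβ+/+ and IKKβ-/- mice, below Acan (34.4 and 21.8), and 267 and 126 in the Ang II groups, above Acan (40.02 and 18.8). Ogn and Dcn also changed places, with Ogn higher in the saline groups (10355 against 6649 in IKKβ+/+ and 9452 against 6049 in IKKβ-/- mice) and Dcn higher in the Ang II groups (4932 against 4723 and 7444 against 6426), where their ranges overlapped.

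**Figure D1:**
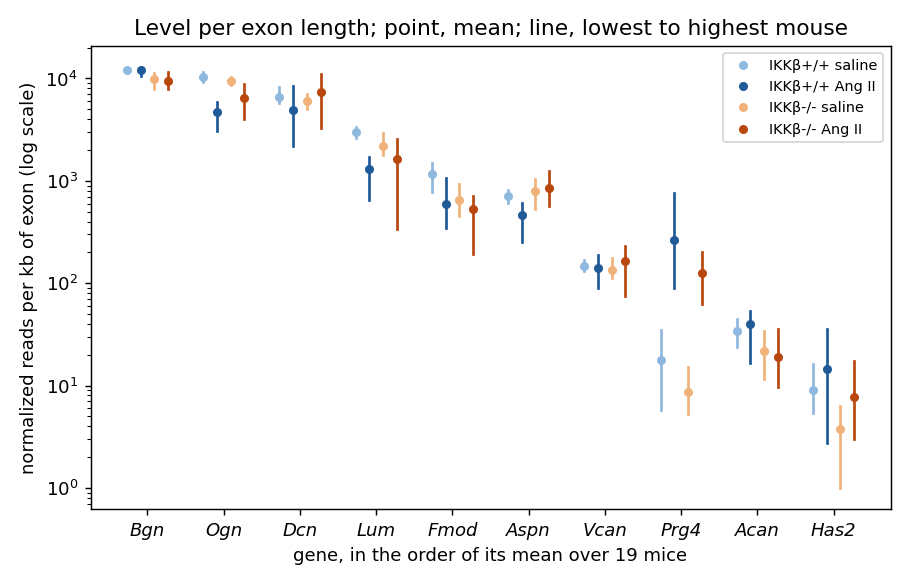
Level of each gene in normalized reads per kb of exon (vertical axis, log scale), with genes in the order of their mean over 19 mice; points are group means and lines run from the lowest to the highest mouse. Bgn leads at a mean of 10874 and Has2 is last at 9.09, and Prg4 is the member whose saline and Ang II groups do not overlap in either genotype.

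Prg4 was higher with Ang II in both genotypes. In IKKβ+/+ mice its normalized read counts were 35.9, 32.6, 24.7, 150.01 and 140.3 with saline, and 424, 381, 566, 3264 and 1081 with Ang II. In IKKβ-/- mice they were 23.2, 39.0, 64.9 and 22.5 with saline, and 269.9, 555, 862, 557 and 458 with Ang II. Every Ang II-infused mouse lay above every saline-infused mouse of its genotype, and also of the other genotype.

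The log2 fold change of Prg4 was 3.77 (SE 0.56) in IKKβ+/+ mice, on the log2(count + 1) scale, which describes the comparison that chose the gene. The IKKβ-/- mice gave 3.86 (SE 0.60, 95% interval 2.61 to 5.10), a 14.5-fold difference in 9 mice, with an adjusted p of 0.00319 in the limma fit over all 14845 genes. The exact permutation test over the 9 IKKβ-/- mice, two-sided, gave p = 0.0159, the smallest p that this design allows. Prg4 was the 1 of 10 members past the threshold (adjusted p under 0.1 and fold change above 1.2) in IKKβ-/- mice, where 5.29% of all tested genes passed and where the groups of 5.29% of the tested genes did not overlap. The difference between the Ang II effects of the genotypes was 0.08 (SE 0.82, 95% interval -1.63 to 1.797) for Prg4, an interval wide enough to hold a log2 difference of 1 in either direction.

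Between genotypes the log2 fold change of Prg4 (IKKβ-/- against IKKβ+/+) was -0.74 (SE 0.60) with saline and -0.66 (SE 0.56) with Ang II, and the genotypes overlapped under both treatments. The highest value, 3264 in 1 Ang II-infused IKKβ+/+ mouse, stood apart from the next (1081), and without that mouse the log2 fold change in IKKβ+/+ mice was 3.27.

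Cell types other than smooth muscle that are known to make Prg4 were looked for through their markers. Of 12 mesothelial markers 7 were in the table and 3 passed the filter, and neither Msln nor Upk3b was among the 7. The sum of the 7 lay between 285.5 and 344 normalized reads in saline-infused and between 150.002 and 408 in Ang II-infused IKKβ+/+ mice. It lay between 245 and 342 in saline-infused and 172 and 437 in Ang II-infused IKKβ-/- mice, so the Ang II groups reached above and below the saline groups. The mouse with the highest Prg4 had the lowest mesothelial sum of all 19 mice (150.002). All 7 tendon or synovial markers were present, at sums between 973 and 1246 with saline and 1011 and 1302 with Ang II in IKKβ+/+ mice, and between 689 and 1075 and 798 and 1346 in IKKβ-/- mice. Of 11 chondrocyte markers 9 were in the table and 4 passed the filter, and their sum was lower with Ang II in IKKβ+/+ mice, at 65.0 to 140.9 against 188 to 282, and overlapped in IKKβ-/- mice, at 122 to 193 against 118 to 288. Of 8 hepatocyte markers 6 were in the table and 1 passed the filter. Their sum did not overlap in IKKβ-/- mice, at 43.2 to 358 with saline and 0 to 9.52 with Ang II, and overlapped in IKKβ+/+ mice, at 5.29 to 38.9 and 3.29 to 70.7. The part of these cell types in the values of Prg4 was not tested.

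The genes whose log2 values followed Prg4 most closely over the 19 mice were Esm1 (r = 0.89), which encodes the endothelial dermatan sulfate proteoglycan endocan, Serpina3n (0.88), a secreted protease inhibitor, Ctxn1 (0.84), the chemokine gene Ccl6 (0.83) and Serpina3m (0.83). These correlations are a description over mice that share 4 groups, and they carry the difference between saline and Ang II. Without the mouse with the highest Prg4, 3 of the 5 genes stayed among the top 5. By the deviations from the group means, which remove the treatment, the closest genes were Tspan4 (0.77), Hhipl1 (0.75), Serpinb1a (0.74), 5730414N17Rik (0.73) and Cdc40 (0.73), none of them among the first 5.

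**Figure D2:**
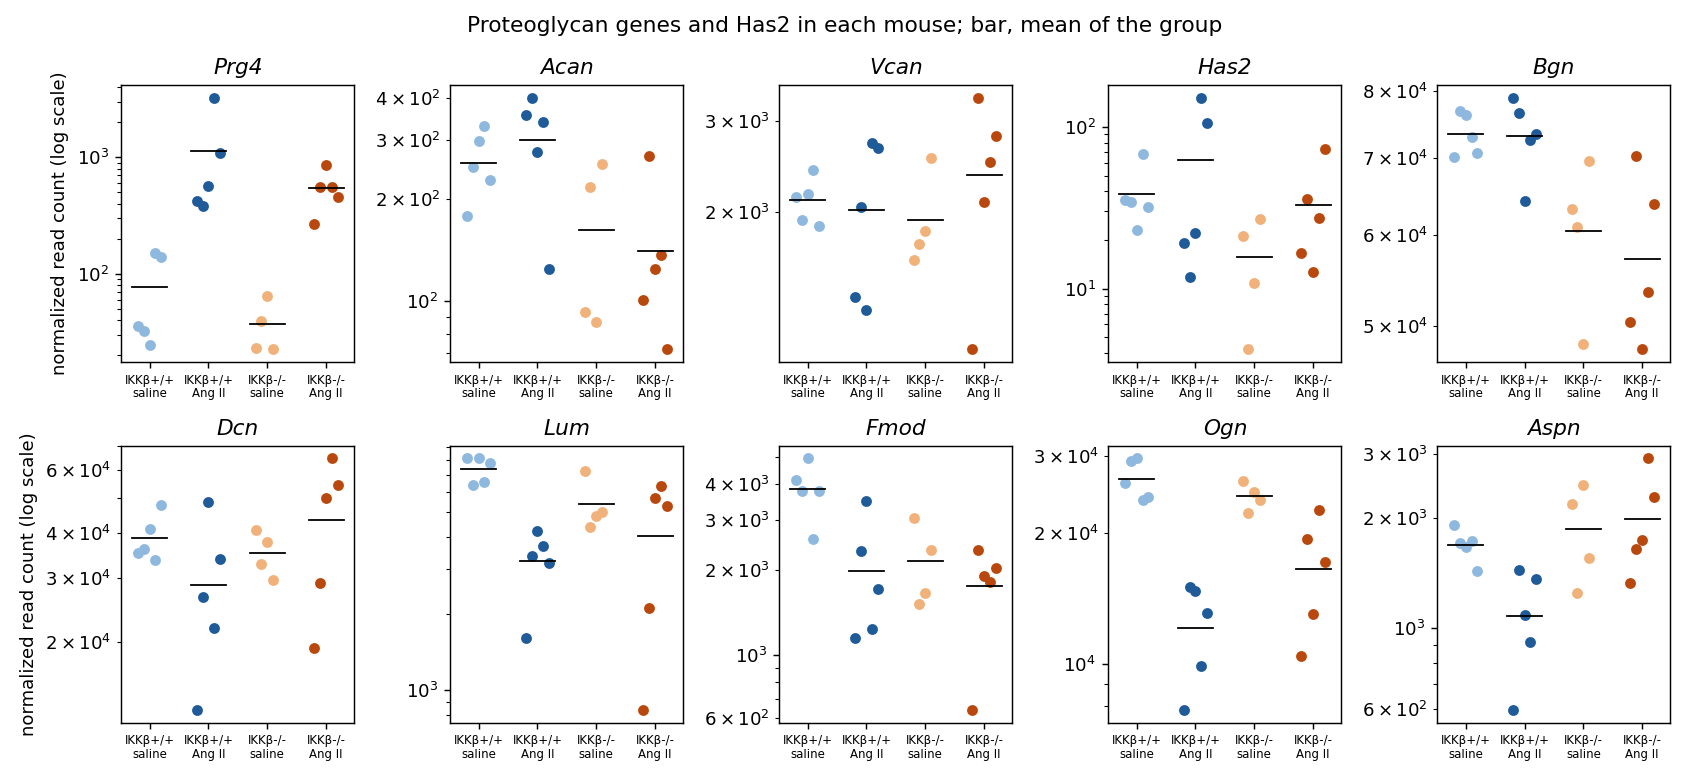
Normalized read count of each member (vertical axis, log scale, own range per gene) in each mouse by genotype and treatment; points are mice and bars are group means. Prg4 with Ang II (269.9 to 3264) lies above all saline-infused mice (22.5 to 150.01), and in IKKβ+/+ mice Ogn and Lum are lower in every Ang II-infused than in every saline-infused mouse.

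Among the hyaluronan-binding members, neither Acan nor Vcan passed the test within IKKβ-/- mice or between genotypes in limma. Acan, which encodes aggrecan, the main proteoglycan of cartilage, had counts of 178, 250.1, 298, 330.4 and 228 with saline and 355, 400.3, 276, 339 and 124 with Ang II in IKKβ+/+ mice. The IKKβ-/- mice had counts of 92.7, 217, 86.5 and 254 with saline and 100.7, 269, 125, 136 and 72.0 with Ang II. The saline and Ang II groups overlapped in both genotypes, and within each treatment the IKKβ-/- mice reached lower values than the IKKβ+/+ mice.

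The log2 fold change of Acan with Ang II was 0.14 (SE 0.36) in IKKβ+/+ mice and -0.19 (SE 0.38, limma adjusted p = 0.849, 95% interval -0.99 to 0.61) in IKKβ-/- mice. Between genotypes it was -0.79 (SE 0.38, limma adjusted p = 0.267) with saline and -1.12 (SE 0.36, limma adjusted p = 0.212) with Ang II, and it did not pass in either. With DESeq2 on the recovered reads the genotype difference with Ang II was -1.08 at an adjusted p of 0.0801. By the deviations from the group means, Acan was followed most closely by Astn2 (r = 0.87), Shb (0.77) and Ly75 (0.77), and Shb and Ly75 were also among the 5 closest by log2 values over all 19 mice, with Ly75 first (0.82).

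Vcan, the gene of versican, the aggregating proteoglycan of vessel walls, varied between 1886 and 2413 in saline-infused and between 1294 and 2722 in Ang II-infused IKKβ+/+ mice. It varied between 1618 and 2539.9 and between 1089.6 and 3327 in IKKβ-/- mice. The log2 fold change with Ang II in IKKβ-/- mice was 0.22 (SE 0.26, limma adjusted p = 0.727, 95% interval -0.33 to 0.77), an interval that left out a log2 fold change of 1 in either direction.

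Has2, the gene of a hyaluronan synthase, had few reads. Its counts were 35.3, 34.1, 22.9, 68.4 and 31.9 with saline and 19.3, 11.7, 21.9, 152 and 105.4 with Ang II in IKKβ+/+ mice. They were 21.2, 4.21, 10.8 and 26.9 with saline and 16.6, 35.7, 12.7, 27.3 and 73.3 with Ang II in IKKβ-/- mice. In the Ang II-infused IKKβ+/+ group 2 mice lay above and 3 below all saline-infused mice of their genotype, and the mouse with the highest Has2 was the one with the highest Prg4. Has2 had a log2 fold change of 1.03 (SE 0.67, limma adjusted p = 0.457, 95% interval -0.38 to 2.43) in IKKβ-/- mice, and between genotypes with saline it was -1.41 (SE 0.67, limma adjusted p = 0.259).

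Of the small leucine-rich proteoglycans, Ogn, Lum, Fmod and Aspn had the lowest log2 fold changes with Ang II in IKKβ+/+ aorta, between -0.71 and -1.27, followed by Dcn at -0.55 and Bgn at -0.01. Ogn (osteoglycin, a keratan sulfate proteoglycan of the adventitia and media) had counts of 26051, 29255, 29608, 23800.5 and 24136 with saline and 7846, 15033, 14690.5, 9919 and 13103.5 with Ang II in IKKβ+/+ mice. The counts of Ogn in IKKβ-/- mice were 26301.5, 22138, 24836.5 and 23739 with saline and 10408, 19319, 12996, 22594 and 17122 with Ang II. The groups did not overlap in IKKβ+/+ mice, and in IKKβ-/- mice 1 Ang II-infused mouse (22594) lay just above the lowest saline-infused mouse (22138).

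The log2 fold change of Ogn with Ang II was -1.17 (SE 0.20) in IKKβ+/+ mice, a description. For the IKKβ-/- mice it was -0.61 (SE 0.21, 95% interval -1.05 to -0.17), which did not pass the threshold in the limma fit (adjusted p = 0.128), while the two-sided exact permutation test of this gene alone gave p = 0.0317. It passed with DESeq2 (-0.56, adjusted p = 0.0829). The difference between the genotypes' effects was 0.56 (SE 0.29, limma adjusted p = 0.474).

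Lum (lumican, which spaces collagen fibrils) had counts of 8110.5, 6408, 8126, 6542 and 7771 with saline and 1600.2, 3367.5, 4217, 3669.8 and 3162 with Ang II in IKKβ+/+ mice. Among IKKβ-/- mice the counts of Lum were 7222, 4386, 4844 and 4980.3 with saline and 836, 2102.5, 5659, 6315 and 5292 with Ang II. The IKKβ+/+ groups did not overlap, and in IKKβ-/- mice 2 Ang II-infused mice lay below all saline-infused mice and 3 within their range. Lum had a log2 fold change of -1.27 (SE 0.40) in IKKβ+/+ mice and -0.72 (SE 0.43, limma adjusted p = 0.399, 95% interval -1.61 to 0.17) in IKKβ-/- mice.

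Fmod (fibromodulin, which binds collagen at early steps of fibril growth) ran from 2564 to 4942 with saline and from 1146 to 3499 with Ang II in IKKβ+/+ mice, and from 1506 to 3052 and 639 to 2350.1 in IKKβ-/- mice. Its log2 fold change was -1.05 (SE 0.33) in IKKβ+/+ mice and -0.36 (SE 0.35, limma adjusted p = 0.643) in IKKβ-/- mice. With saline its mean was 3848 ± 858 (SD, n = 5) in IKKβ+/+ and 2141 ± 710.4 (SD, n = 4) in IKKβ-/- mice, a log2 fold change of -0.87 (SE 0.35, limma adjusted p = 0.177) that did not pass.

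Aspn (asporin, a collagen-binding inhibitor of TGF-β) had counts of 1909, 1713, 1664, 1732 and 1434 with saline and 596, 1442, 1086, 917 and 1359.8 with Ang II in IKKβ+/+ mice. For IKKβ-/- mice the counts of Aspn were 2177, 1246, 2468 and 1554 with saline and 1331, 1644, 1738, 2913 and 2284 with Ang II. With Ang II, 4 of 5 IKKβ-/- mice lay above all IKKβ+/+ mice, and the lowest IKKβ-/- mouse (1331) lay within their range. The log2 fold change between genotypes with Ang II was 0.89 (SE 0.23, 95% interval 0.40 to 1.37) at a limma adjusted p of 0.162 and did not pass, where only 0.128% of all tested genes did. DESeq2 gave 0.87 at an adjusted p of 0.0249. The Ang II effect on Aspn was -0.71 (SE 0.23) in IKKβ+/+ mice and 0.09 (SE 0.25, limma adjusted p = 0.899) in IKKβ-/- mice. For the difference of these effects, 0.79 (SE 0.34), the limma fit over all genes gave an adjusted p of 0.398 and an unadjusted p of 0.0297.

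Dcn (decorin, which binds collagen and TGF-β) had counts between 33739 and 47958 with saline and between 12905 and 48799 with Ang II in IKKβ+/+ mice, and between 29669 and 40797 and between 19139 and 64618 in IKKβ-/- mice. The Ang II groups were wide and covered the saline groups in both genotypes. Dcn had a log2 fold change of -0.55 (SE 0.32) in IKKβ+/+ mice and 0.18 (SE 0.34, limma adjusted p = 0.839, 95% interval -0.53 to 0.88) in IKKβ-/- mice. Bgn (biglycan, the most abundant proteoglycan transcript of these samples per kb among the members) varied least, between 64132 and 78927 in all IKKβ+/+ mice and between 47736 and 70284 in all IKKβ-/- mice. Its log2 fold change with Ang II was -0.01 (SE 0.17) in IKKβ+/+ and -0.09 (SE 0.18, limma adjusted p = 0.853, 95% interval -0.46 to 0.29) in IKKβ-/- mice.

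**Figure D3:**
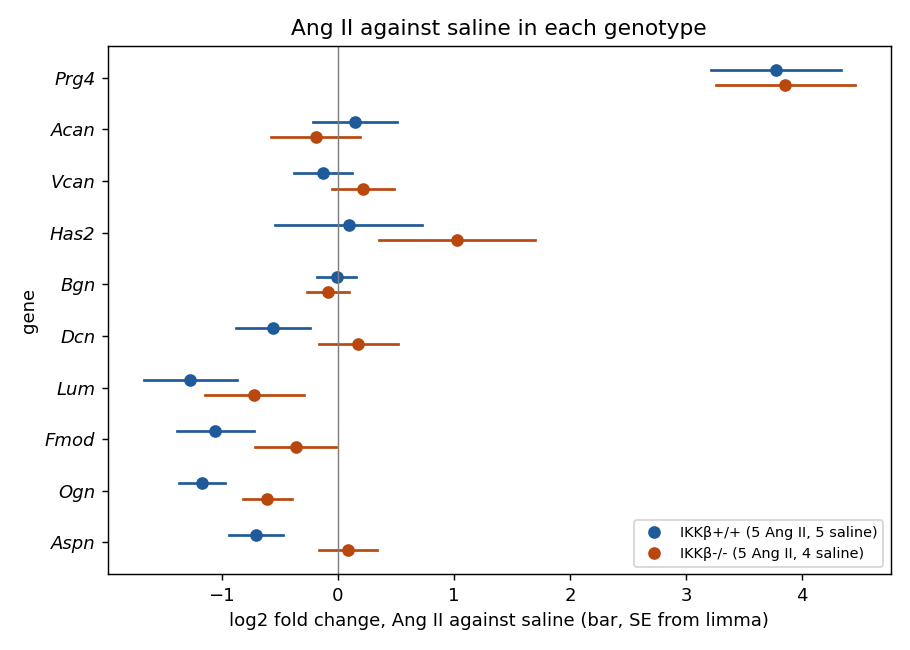
Log2 fold change of Ang II against saline (horizontal axis) for each member in IKKβ+/+ and IKKβ-/- mice; points are limma estimates on log2(count + 1) and bars are their SE. Prg4 stands at 3.77 and 3.86, and Ogn, Lum, Fmod and Aspn lie further below 0 in IKKβ+/+ (-1.17, -1.27, -1.05 and -0.71) than in IKKβ-/- mice (-0.61, -0.72, -0.36 and 0.09).

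Counted over the members, 1 was higher and 4 were lower past the threshold in IKKβ+/+ mice, where 8.66% of all tested genes passed, and the groups of 3 members did not overlap (Prg4 higher, Ogn and Lum lower), as in 8.42% of all tested genes. Since this comparison chose Prg4, nothing is read from these counts, and the 5 members past the threshold were 2 with some single mice left out. The median log2 fold change of the members was -0.34, against 0.01 over all genes tested. In IKKβ-/- mice the members' median was 0.001 and that of all genes -0.003.

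Between genotypes no member tested passed in limma, Prg4 being described only. With saline 5.47% of all tested genes passed and 8.76% did not overlap between the genotypes. Bgn was the 1 member without overlap there, at 70128 to 76824 in IKKβ+/+ and 48255 to 69495 in IKKβ-/- mice, a log2 fold change of -0.29 (SE 0.18, limma adjusted p = 0.388). At an unadjusted limma p under 0.05 there were 2 members with saline and 4 with Ang II. Of all 14845 genes tested, 2857 with saline and 2118 with Ang II had such a p. With Ang II 0.128% of all tested genes passed in limma and 1.54% did not overlap. DESeq2 called 3 members there, Acan, Bgn and Aspn, and 521 of all 14547 genes it tested. edgeR called 0 members there and 16 of all 14845 genes. With saline edgeR and DESeq2 both called 0 members. For the difference between the Ang II effects 0% of the genes tested passed in limma, with 1654 of 14845 at an unadjusted p under 0.05, and 1 member was among these (Aspn). edgeR called 3 and DESeq2 279 genes for this difference, with 0 members in either.

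Among the small leucine-rich proteoglycans, Dcn, Lum, Fmod, Ogn and Aspn were positively correlated from mouse to mouse and Bgn was not with all of them. Within groups, the deviations of Dcn and Lum from their group means had r = 0.86 over 19 mice, those of Fmod and Ogn 0.77 and those of Ogn and Aspn 0.77, whereas Bgn had r between -0.27 (Dcn) and 0.23 (Fmod) with these 5 genes and Prg4 between -0.28 and 0.45 with the other members. All pairs come from the same libraries, so these values are a description. The same 5 genes were also correlated with the fibroblast markers Pdgfra, Dpt, Pi16, Col15a1, Ly6a, Cd34, Scara5 and Dpep1: within groups, r with their summed count was 0.90 for Lum, 0.79 for Dcn, 0.74 for Fmod, 0.59 for Ogn and 0.49 for Aspn, against 0.18 for Bgn and 0.06 for Prg4. Vcan, at 0.48, lay close to Aspn, while Has2 had 0.24 and Acan -0.05.

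The smooth muscle marker sum was higher with Ang II in IKKβ+/+ mice, at 464324 to 647800 against 334569 to 446231 with saline, without overlap, and in IKKβ-/- mice it lay between 309864 and 553760 against 435198 to 593177. Its part in the lower counts of Ogn, Lum, Fmod and Aspn was not tested. The fibroblast sum lay between 36323 and 47973 in saline-infused and between 25676 and 41902 in Ang II-infused IKKβ+/+ mice. It lay between 19769 and 36133 in saline-infused and between 15684 and 44919 in Ang II-infused IKKβ-/- mice. The Ang II-infused IKKβ-/- mouse with the lowest sum (15684) also had the lowest Lum (836) and Fmod (639) of all 19 mice. The fibroblast score was added to the fit as a covariate after the data had been seen. With it, the log2 fold change of Lum in IKKβ-/- mice was -1.04 (limma adjusted p = 0.00903) and that of Ogn -0.71 (limma adjusted p = 0.0253), both past the threshold, and that of Prg4 was 3.81 (limma adjusted p = 0.0031). The covariate changed the calls over the whole set of 14845 genes tested. In IKKβ-/- mice 957 passed with it and 785 without it, and between genotypes with saline 29 and 812.

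**Figure D4:**
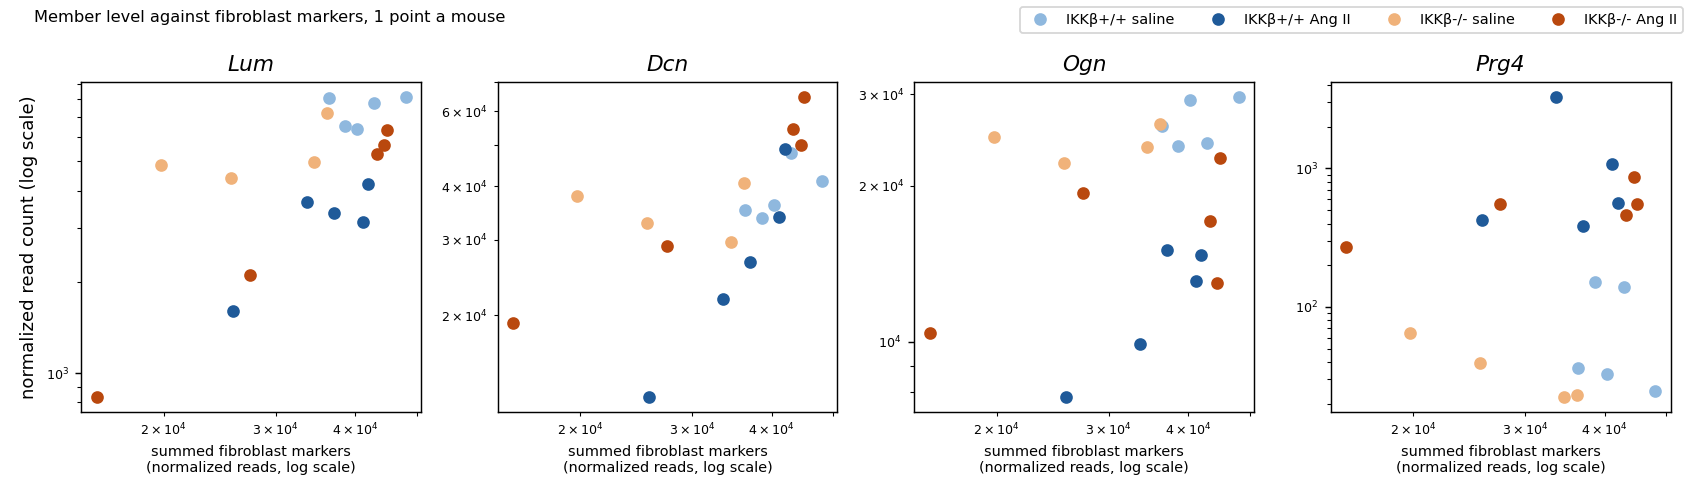
Normalized read count of Lum, Dcn, Ogn and Prg4 (vertical axes, log scale) against the summed normalized count of 8 adventitial fibroblast markers (horizontal axes, log scale), 1 point a mouse and 1 colour a group. Lum and Dcn run up along the marker sum (r within groups 0.90 and 0.79) and Prg4 does not (0.06).

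As shares of the length-scaled total of the 10 members, a measure added after the data had been seen, Bgn, Ogn and Dcn made up most of the proteoglycan transcript pool. Ogn took 27.4% to 32.7% of the pool in saline-infused and 15.5% to 22.6% in Ang II-infused IKKβ+/+ mice. Ogn took 31.5% to 34.8% in saline-infused and 19.9% to 28.2% in Ang II-infused IKKβ-/- mice, and the groups did not overlap. The two-sided exact permutation p was 0.0159, the smallest possible, and 0.0794 after Benjamini-Hochberg adjustment over the 10 shares compared. Prg4 rose from at most 0.0546% to between 0.35% and 0.791% of the pool in IKKβ-/- mice, with the same exact permutation p before and after adjustment as Ogn. The shares of one pool depend on each other. As the measure was made with the values known, its p-values are a description.

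Chromosomal neighbours of the members were read beside them. Aspn (chr13:49544443-49567565) and Ogn (chr13:49608046-49624501) lie in a row of genes with Ecm2 and Omd, which also encode leucine-rich matrix proteins. Ecm2 fell with Ang II in IKKβ+/+ mice, from 4581 ± 515 to 2053 ± 685 (SD, n = 5 each), by 1.22 on the log2 scale (limma adjusted p = 0.00601), and its groups did not overlap. Ecm2 had a log2 fold change of -0.40 (limma adjusted p = 0.397) in IKKβ-/- mice, and that of Omd was -0.59 (limma adjusted p = 0.370) in IKKβ+/+ and 0.31 (limma adjusted p = 0.731) in IKKβ-/- mice. Next to Fmod (chr1:134037254-134048277) lie Prelp and Optc, and Optc (opticin) fell with Ang II in both genotypes, by 0.42 (limma adjusted p = 0.0409) in IKKβ+/+ and by 0.55 (limma adjusted p = 0.0178) in IKKβ-/- mice, whereas Prelp had log2 fold changes of -0.13 and 0.42 and did not pass. Beside Dcn and Lum on chromosome 10, Epyc had at most 18.3 reads in a mouse.

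The further genes of the pathway were read from 6 lists with 127 genes in the table, of which 110 were tested. With Ang II, 18 of the 110 passed in IKKβ+/+ mice (8 higher and 10 lower, 16.4%, against 8.66% of all genes tested) and 14 in IKKβ-/- mice (5 higher and 9 lower, 12.7%, against 5.29% of all). Their median log2 fold changes were -0.16 and -0.06. The lists were put together with earlier results of these data known. The counts and adjusted p-values of list genes, with the chromosomal neighbours among them, are therefore a description.

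Of 26 further core proteins tested, 3 rose and 5 fell in IKKβ+/+ mice, which is 30.8%, against 8.66% of all genes tested. Esm1 rose by the most, from 139.8 ± 60.05 to 1137 ± 809 (SD, n = 5 each), a log2 fold change of 2.87 (limma adjusted p = 0.00195). Esm1 also rose in IKKβ-/- mice, from 111 ± 81.6 (n = 4) to 633 ± 204 (n = 5), a log2 fold change of 2.698 (limma adjusted p = 0.00565), and in both genotypes the groups did not overlap. Tsku (tsukushi) rose in both genotypes (0.65 and 0.99), and Sdc4 (syndecan 4) rose in IKKβ+/+ mice (0.78). Sdc1 (syndecan 1) and Agrn (agrin) fell in both, Sdc1 by 0.66 and by 0.62 and Agrn by 0.49 and by 0.49, and Gpc6 (glypican 6) fell by 0.90 in IKKβ+/+ mice. In IKKβ-/- mice 2 of the 26 rose and 3 fell, namely Esm1 and Tsku up and Sdc1, Agrn and Optc down. This is 19.2%, against 5.29% of all genes tested.

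Of 19 hyaluronan genes tested, 26.3% passed in IKKβ+/+ and 21.1% in IKKβ-/- mice, against 8.66% and 5.29% of all genes tested. Has1, another hyaluronan synthase, had the largest log2 fold change of these in IKKβ+/+ mice. Its range was 2.66 to 56.0 with saline and 14.9 to 333 with Ang II, a log2 fold change of 2.93 (limma adjusted p = 0.032), and in IKKβ-/- mice, at 6.32 to 23.2 against 11.1 to 43.4, it was 0.97 (limma adjusted p = 0.571). The difference of the effects on Has1 was -1.97 (limma adjusted p = 0.494). Cd44, the main cell surface receptor of hyaluronan, rose in IKKβ+/+ mice (1.01), and Hapln1, the link protein that fastens aggrecan and versican to hyaluronan, fell there from 138 ± 34.1 to 53.1 ± 19.3 (SD, n = 5 each), by 1.40 on the log2 scale (limma adjusted p = 0.0104). Itih5 and the scavenger receptor Stab1 fell there too, by 1.19 and by 0.69. In IKKβ-/- mice Lyve1, the hyaluronan receptor of lymphatic vessels and resident macrophages, rose (1.07), and Hmmr, Itih3 and the hyaluronan-degrading Cemip2 fell by 2.21, by 1.17 and by 0.70. Itih3 is also made by the liver, and the hepatocyte marker sum was lower in every Ang II-infused than in every saline-infused mouse of that genotype, whose part in the fall of Itih3 was not tested.

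The shares of sugar chain enzymes that passed lay near those of all genes (8.66% in IKKβ+/+ and 5.29% in IKKβ-/- mice). Of 25 linker and chondroitin or dermatan sulfate enzymes, B3gat3 rose in IKKβ+/+ (0.55) and Chst11 in IKKβ-/- mice (0.61), which is 4% in each. Of 18 heparan sulfate enzymes, Ndst3 and Hs6st2 fell in IKKβ+/+ mice, by 1.18 and by 1.04, and Hs6st2 also passed, lower, in IKKβ-/- mice (-0.997, limma adjusted p = 0.0308), which is 11.1% and 5.56% of the list. Of 15 cartilage genes tested, Hapln1 was the 1 that passed in IKKβ+/+ mice (6.67%) and none passed in IKKβ-/- mice in limma. In IKKβ-/- mice 1 of the 15 had an unadjusted p under 0.05, as had 2636 of all 14845 genes. Sox9, the transcription factor of cartilage, ran from 23.7 to 63.8 with saline and 34.2 to 111 with Ang II in IKKβ+/+ mice.

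The list of proteases that cut aggrecan or versican had 9 tested genes, 8 of the ADAMTS family and Timp3, an inhibitor of such proteases, which did not pass in any comparison in limma. With Ang II 22.2% of the list passed in IKKβ+/+ and 33.3% in IKKβ-/- mice, against 8.66% and 5.29% of all genes. Adamts1 had opposite directions in the genotypes. Its mean rose from 3809 ± 1061 to 8182 ± 3308 (SD, n = 5 each) in IKKβ+/+ mice, a log2 fold change of 1.05 (limma adjusted p = 0.0507), and fell from 9380 ± 3703 (n = 4) to 3882 ± 1412 (n = 5) in IKKβ-/- mice, by 1.25 (limma adjusted p = 0.0377). The saline and Ang II groups overlapped in both genotypes. The difference of the effects was -2.31 (SE 0.44), and with an adjusted p of 0.215 in limma it did not pass, although no other gene had a smaller adjusted p. With saline Adamts1 was higher in IKKβ-/- mice (1.24, limma adjusted p = 0.0571).

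Adamts4, an aggrecanase, ran from 0 to 17.4 in saline-infused and from 26.2 to 106.7 in Ang II-infused IKKβ-/- mice, and from 28.5 to 87.3 and 31.0 to 135 in IKKβ+/+ mice. It rose in IKKβ-/- mice (3.14, limma adjusted p = 0.0147) and was lower in IKKβ-/- than in IKKβ+/+ mice with saline (-2.99, limma adjusted p = 0.0367). Adamts9 rose in IKKβ+/+ mice (1.03) and Adamts8 fell in IKKβ-/- mice by 1.10. With saline 5 of the 110 genes passed between genotypes, which is 4.55%, against 5.47% of all genes tested. Adamts1 was higher and Adamts4, Stab1, Chst11 and Glce were lower. With Ang II none passed in limma, where 21 had an unadjusted p under 0.05, as had 2118 of all 14845 genes. DESeq2 called 8 of the 110 genes there and 521 of all 14547 it tested.

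**Figure D5:**
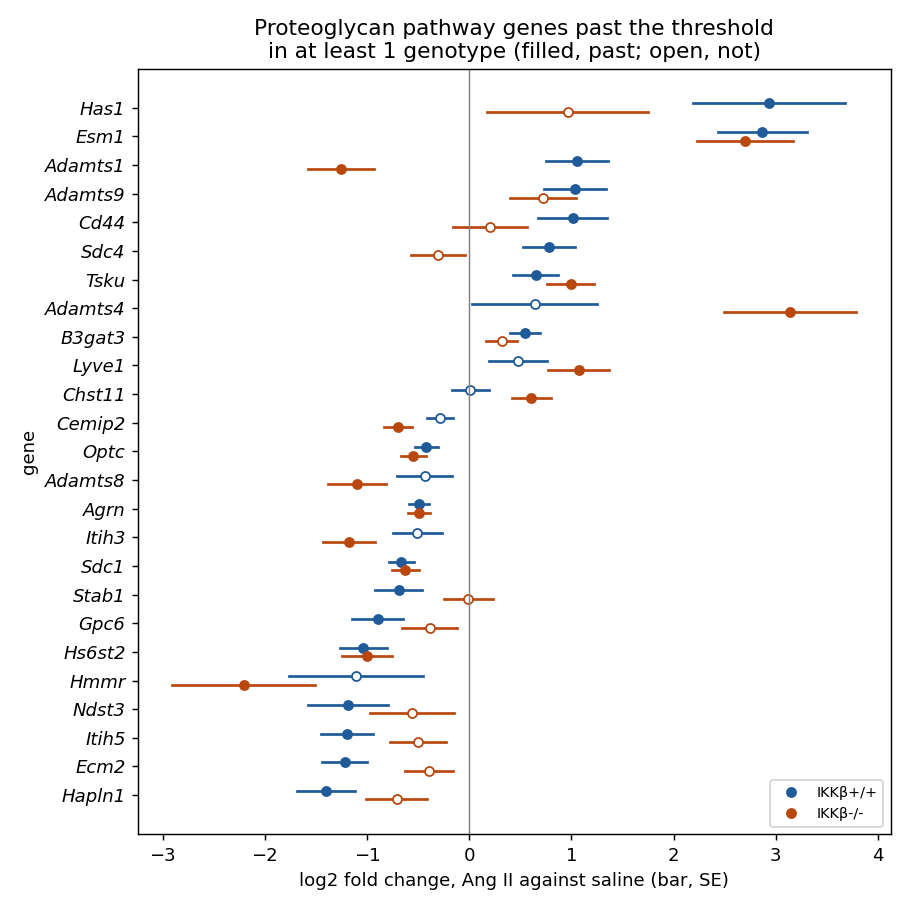
Log2 fold change of Ang II against saline (horizontal axis) for the genes of the 6 lists that passed the threshold in at least 1 genotype; points are limma estimates in IKKβ+/+ and IKKβ-/- mice, bars are SE, and filled points passed. Esm1 lies at 2.87 and 2.698, and Adamts1 at 1.05 and -1.25.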

How the data were processed

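RNA of the suprarenal aorta of 19 male mice in 4 groups was read from 1 table of 20408 genes. The authors made poly(A) libraries, sequenced single reads, trimmed them (Trimmomatic 0.35), aligned them to GRCm38 (STAR 2.7.1a), counted them per gene on Gencode models and normalized the counts with DESeq2 1.30.1. TPM values, which the authors also computed with STAR and RSEM, were not used here. The deposited values are a signal in units of normalized reads, which the authors made by dividing the reads of a mouse by its size factor. Divided by the value of 1 read, 100% of them came out whole within 0.02, so reads were recovered. Every gene was above 0 in at least 4 mice. All sample columns were used, and all 36 pairs of libraries within groups differed by more than sampling noise.

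Testing was limited to the 14845 genes that reached a normalized count of 10 in 4 or more mice, and 5563 were left out. limma 3.58.1 (R 4.3.3) was fitted with a trend to log2(count + 1), with 4 group means in a single fit. On this scale the fold changes of genes with few reads are pulled toward 0. Tests were two-sided with Benjamini-Hochberg adjustment over all genes tested, and the threshold was an adjusted p under 0.1 with a fold change above 1.2. Single genes were also compared by exact permutation over IKKβ-/- mice. Nothing in the labels names a shared culture, litter or day. Depth (11382573 to 19906694 reads) limits genes with few reads, such as Has2.

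The members and the lists of pathway and marker genes were chosen with earlier results of these data known. Named are the 10 members, up to 4 genes per list and comparison with the largest changes past the threshold, the 5 genes most like Prg4 and Acan by Pearson's r, the genomic neighbours and Ikbkb, and Sox9, Msln, Upk3b and other marker genes were named after their values had been seen. The fit was tested on simulated data. Alternatives were a pseudocount of 4, no filter, TMM scaling, edgeR 4.0.16, DESeq2 1.42.0, a fit of only the groups compared and each mouse left out. The fibroblast covariate and the shares of the member total were added after the data were seen. Promoter sequences came from RefSeq. Exon lengths came from Gencode M21 models of the same build, an earlier release than the authors'. Figures were drawn with matplotlib.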

Additional observations from a re-analysis of the deposited data

Results flagged for a closer look

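Of 40 groups (10 members in 4 groups), 2 held a mouse that stood apart by Dixon's criterion, which chance flags in about 1 of 20 groups of normally distributed values. The criterion was applied to the normalized counts and not on the log2(count + 1) scale of the fits. The count of Prg4 in 1 Ang II-infused IKKβ+/+ mouse was 3263.74, against 1081 in the next mouse of its group. The count of Has2 in 1 saline-infused IKKβ+/+ mouse was 68.4, against 35.3 in the next.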

How the results depend on the processing

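Prg4 in IKKβ-/- mice kept its direction and its side of the threshold under all alternatives, with log2 fold changes of 3.66 to 4.16. No paired analysis was possible because the mouse numbers in the labels belong to 1 group each. In the text below, a cause was not tested unless named. Members past the threshold in IKKβ-/- mice numbered 1, but 2 with DESeq2 (Prg4 and Ogn) and 3 with the fibroblast covariate (also Lum), and 1 to 2 with a mouse left out (Ogn joined without Ang II-infused IKKβ+/+ mouse 1 or Ang II-infused IKKβ-/- mouse 2 or 4). Over all genes tested in that comparison, limma called 785, DESeq2 1164 of 14835 and limma with the covariate 957 of 14845. Without those mice in turn limma called 901, 1082 and 521 genes. In IKKβ+/+ mice, where the count is a description, the members past the threshold numbered 5, and 2 to 5 with a mouse left out: 2 without Ang II-infused mouse 1 or 4 or saline-infused mouse 1, 2, 3 or 5, and 3 without Ang II-infused mouse 5 or saline-infused mouse 4. Of all genes tested, 1286 passed in that comparison. Without Ang II-infused mouse 1, 4 or 5 there were 428, 444 and 1137, and 625 to 933 without 1 saline-infused IKKβ+/+ mouse. Between genotypes with saline there were 0 such members, but 2 (Lum and Fmod) with only the groups compared in the fit and 0 to 1 with a mouse left out (Fmod, without Ang II-infused IKKβ-/- mouse 1). Of all genes tested there, 812 passed in the main limma fit, 1420 with only the groups compared and 1124 without that mouse. With Ang II there were 0, but 3 with DESeq2, 1 with the covariate (Aspn) and 0 to 1 with a mouse left out (Aspn without Ang II-infused IKKβ+/+ mouse 3 or IKKβ-/- mouse 1, and Acan without IKKβ-/- mouse 2). Genes of the lists numbered 18 in IKKβ+/+ mice (8 to 21 with a mouse left out, with 9, 8 and 11 without Ang II-infused mouse 1 or 4 or saline-infused mouse 5) and 14 in IKKβ-/- mice (9 to 17, with 9 without saline-infused mouse 1). Over all genes tested, limma called 428, 444 and 625 without these IKKβ+/+ mice, and 455 in IKKβ-/- mice without saline-infused mouse 1. Between genotypes with saline the list genes numbered 5, but 8 with DESeq2, 13 with only the groups compared in the fit, 0 with the covariate and 1 to 12 with a mouse left out (3 without saline-infused IKKβ+/+ mouse 3, and 3, 2, 1 and 12 without saline-infused IKKβ-/- mouse 1, 2, 3 and 4). All genes that passed there moved as well. They numbered 812 in the main limma fit, 1437 with DESeq2, 1420 with only the groups compared and 29 with the covariate. With a mouse left out they ran from 24 (saline-infused IKKβ-/- mouse 3) to 1726 (saline-infused IKKβ-/- mouse 4). With Ang II the list genes numbered 0, but 8 with DESeq2, 3 with the covariate and 0 to 8 with a mouse left out (8 without Ang II-infused IKKβ+/+ mouse 3, and 4 without Ang II-infused IKKβ-/- mouse 1 or 2). Over all genes, DESeq2 called 521 of 14547 there, and limma called 553 of 14845 without Ang II-infused IKKβ+/+ mouse 3. For the difference of the effects there were 0 list genes, but 2 with DESeq2 and 0 to 1 with a mouse left out (1 without Ang II-infused IKKβ+/+ mouse 3 or saline-infused IKKβ-/- mouse 3). Over all genes tested for this difference, DESeq2 called 279, and limma called 79 and 19 without those mice in turn. Of the 5 genes most like Prg4, 3 stayed without the mouse with the highest Prg4. None of the members whose sign turned had passed. With the covariate, log2 fold changes turned in IKKβ-/- mice for Dcn (-0.0478) and Aspn (-0.0254), between genotypes with saline for Vcan (0.11), Dcn (0.40), Lum (0.28) and Ogn (0.12), and in the difference for Lum (-0.20). With a mouse left out, they ran from -0.46 to 0.0796 for Acan and from -0.0886 to 0.24 for Aspn in IKKβ-/- mice, from -0.0588 to 0.27 for Aspn between genotypes with saline, and, with Ang II, from -0.18 to 0.55 for Lum, from -0.35 to 0.15 for Fmod and from -0.88 to 0.0135 for Has2. Of 1290 recomputed fold changes, 20 were marked as turned, 16 as newly passed and 1254 as unchanged. Values only described were every member in IKKβ+/+ mice and Prg4 outside the IKKβ-/- test. For these, unchanged meant a shift below the mean SD of the groups, whatever the side of the threshold. A turned sign was counted for them only in members that had passed.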
